A study of Mus musculus with 44 samples.

Results

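Chromatin accessibility was compared between Ctrl late morulae (E3.25) and Ctrl morulae (E2.75) of the *Pou5f1* line. The comparison was defined by genotype and stage as labelled and covered all 152393 peaks of the series in 6 of its 44 libraries, 3 for each stage. Ctrl embryos came from *Pou5f1* flox/flox; *Zp3-Cre* mothers and *Pou5f1* +/mKO2 males, and were the embryos without the mKO2 label. They therefore lacked the maternal *Pou5f1* allele, which the oocyte-specific *Zp3-Cre* deletes, and kept the paternal copy. All libraries are labelled B6C3F1, and the females had been superovulated with PMSG and hCG. Each library was a pool of 20 to 40 whole, compacted morulae that had received neither the MEK inhibitor nor immunosurgery. These 2 treatments were given to the inner cell masses (ICMs) in the other libraries. The *Pou5f1*-KO morulae of both stages, 3 libraries each, lack the maternal and the zygotic copies and were read here only beside the Ctrl result. Nothing in the labels says whether the 3 libraries of a stage came from separate collections, so the p-values measure the spread between these libraries. Stage and collection also cannot be told apart.

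ATAC-seq marks open chromatin by the insertions of the Tn5 transposase, which reaches DNA that is not tightly wrapped in nucleosomes. Between these stages the compacted embryo sorts its cells into outer, polarised cells, which become trophectoderm (TE), and inner cells, which become the ICM. In outer cells the Hippo pathway is off, so that YAP and TAZ enter the nucleus and act with TEAD4 to turn on *Cdx2* and *Gata3*. Inner cells keep the pathway on and retain pluripotency factors. The outer layer then builds keratin filaments, tight junctions and sodium pumps, with which it fills the blastocoel. Accessibility is given as rlog, a log2 value that corrects for depth and pulls weak peaks toward their mean over libraries. In a pool of whole embryos, a smaller share of cells with an open site and less opening per cell cannot be told apart.

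Peaks that became more accessible and peaks that became less accessible held different short sequences, which are given with their shares further on. The windows below are shown because they contain these sequences in peaks with large differences or beside genes of the lists described later. Each is the full peak window of 200 bp on the + strand of GRCm38. In the windows that were higher in late morula, capitals mark the motifs CDX (TTTATGG), GRHL (AACCNGTT), TEAD (GGAATGT), AP-1 (TGANTCA) and the GATA site AGATAAG on either strand, N being any base.
*Bcar3*, chr3:122521339-122521538: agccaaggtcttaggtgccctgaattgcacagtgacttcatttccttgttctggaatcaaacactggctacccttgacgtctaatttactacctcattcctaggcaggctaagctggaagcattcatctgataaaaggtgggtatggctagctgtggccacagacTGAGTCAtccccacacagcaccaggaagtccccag
*Slc9a2*, chr1:40764836-40765035: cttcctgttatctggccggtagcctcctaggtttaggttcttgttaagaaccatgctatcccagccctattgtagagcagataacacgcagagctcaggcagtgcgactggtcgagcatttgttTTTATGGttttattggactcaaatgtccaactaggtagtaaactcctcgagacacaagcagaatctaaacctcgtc
*2010111I01Rik*, chr13:63092937-63093136: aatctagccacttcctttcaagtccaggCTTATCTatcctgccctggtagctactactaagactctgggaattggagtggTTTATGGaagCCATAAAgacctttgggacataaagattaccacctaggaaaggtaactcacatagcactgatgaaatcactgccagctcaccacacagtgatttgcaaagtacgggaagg
*Wwtr1*, chr3:57584956-57585155: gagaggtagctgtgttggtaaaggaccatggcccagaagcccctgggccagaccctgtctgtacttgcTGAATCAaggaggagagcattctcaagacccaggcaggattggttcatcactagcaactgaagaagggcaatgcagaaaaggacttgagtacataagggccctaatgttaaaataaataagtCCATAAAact
*Hes1*, chr16:30055519-30055718: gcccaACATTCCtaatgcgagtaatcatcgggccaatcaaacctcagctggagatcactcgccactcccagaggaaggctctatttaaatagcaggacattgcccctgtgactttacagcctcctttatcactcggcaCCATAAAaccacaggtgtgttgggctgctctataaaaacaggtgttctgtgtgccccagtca
*Tead2*, chr7:45214417-45214616: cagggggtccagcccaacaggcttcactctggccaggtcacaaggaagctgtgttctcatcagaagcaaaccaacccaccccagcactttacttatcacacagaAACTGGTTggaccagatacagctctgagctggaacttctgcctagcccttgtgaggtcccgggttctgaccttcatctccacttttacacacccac
In the windows that were lower in late morula, capitals mark OBOX (GGATTA), NR5A2 (CAAGGCCA) and ESRRB (CAAGGTCA). The *Ssc4d* window, the second largest decrease, holds none of them.
*Ubxn7*, chr16:32357069-32357268: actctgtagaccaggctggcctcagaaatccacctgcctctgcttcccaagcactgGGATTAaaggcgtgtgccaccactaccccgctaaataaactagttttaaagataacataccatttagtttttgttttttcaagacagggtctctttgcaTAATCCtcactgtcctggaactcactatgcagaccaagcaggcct
*Ssc4d*, chr5:135969592-135969791: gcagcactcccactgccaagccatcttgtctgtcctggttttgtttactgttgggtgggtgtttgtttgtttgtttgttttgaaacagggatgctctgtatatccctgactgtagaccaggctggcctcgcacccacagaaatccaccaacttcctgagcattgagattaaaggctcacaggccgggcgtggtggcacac
*Tead3*, chr17:28357645-28357844: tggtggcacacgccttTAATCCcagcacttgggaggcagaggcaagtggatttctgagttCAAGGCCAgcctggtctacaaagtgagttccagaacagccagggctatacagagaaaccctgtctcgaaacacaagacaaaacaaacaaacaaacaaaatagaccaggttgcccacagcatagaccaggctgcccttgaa
*Fgf4*, chr7:144868478-144868677: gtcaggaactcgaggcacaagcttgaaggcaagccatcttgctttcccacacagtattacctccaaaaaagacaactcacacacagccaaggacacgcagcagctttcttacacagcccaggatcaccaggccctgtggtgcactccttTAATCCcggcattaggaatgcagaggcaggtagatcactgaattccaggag
*Hk1*, chr10:62338008-62338207: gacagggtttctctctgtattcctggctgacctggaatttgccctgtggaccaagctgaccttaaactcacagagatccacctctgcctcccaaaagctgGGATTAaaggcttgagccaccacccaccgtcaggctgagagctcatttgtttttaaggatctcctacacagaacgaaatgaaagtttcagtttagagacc

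Of 152393 peaks, 5560 were higher in late morula (3.65% of those tested) and 4255 were lower (2.79%), together 6.44%, by limma at an adjusted p under 0.05. The median difference was 1.66 on the log2 scale among the higher peaks and -1.74 among the lower. Differences of at least 2 were found at 1050 and 1005 peaks. The higher peaks made up 56.6% of the calls. This share was 46.0% when each library was shifted to the same median rlog, 48.9% after quantile normalization and 67.3% among the stronger peaks alone, so which direction was more frequent depended on the scaling. Over all peaks the median difference was 0.084. The libraries of the stages did not overlap at 5324 of the higher and 4001 of the lower peaks, and over all peaks late morula lay above morula without overlap at 14.7% and below it at 10.5%. The counts depended on single libraries, with 2454 higher and 1893 lower peaks left without late morula replicate 1. Leaving out morula replicate 2 gave 3332 and 2404, late morula replicate 2 gave 3140 and 3146, late morula replicate 3 gave 3315 and 2554, and morula replicate 3 gave 4834 and 2825.

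**Figure D1:**
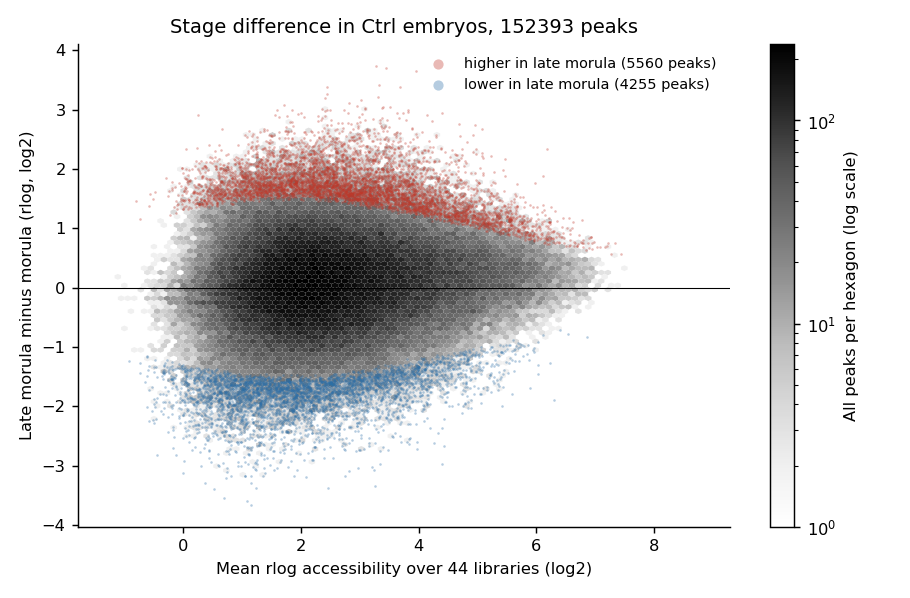
Stage difference (late morula minus morula, rlog on the log2 scale) against the mean rlog over 44 libraries. Grey hexagons count all peaks on a log scale, red points are the 5560 higher peaks and blue points the 4255 lower peaks. Called differences reach 3.74 upward and -3.66 downward.

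The 6 libraries separated by stage on the first principal component, which held 40.7% of their variance. Correlations between libraries were 0.812 to 0.847 within morula, 0.866 to 0.879 within late morula and 0.734 to 0.797 between the stages. The mean profiles of the stages lay 1.64 times as far apart as libraries lay from their own stage mean (root mean square). An exact permutation test of this ratio gave p = 0.1, the smallest that 3 against 3 libraries allow. Morula replicate 1 stood apart from the other morula libraries on the second component (18.6% of the variance), at 198 against -112.6 and -93.94. Without it 3177 peaks were higher and 3004 lower. The peak near *Nanog* that was strongest in the other 38 libraries lay between 6.17 and 6.95 in all 6, and that near *Gata6* between 5.30 and 6.14. These peaks were chosen for their strength, so their level does not describe the cells of the pools. All peaks near pluripotency genes had library medians of 3.09 to 3.23 in morula and 2.86 to 2.97 in late morula. Those near primitive endoderm regulators had 2.58 to 2.83 and 2.86 to 2.91. Peaks near neural and muscle regulators, genes of other tissues, had library medians of 2.10 to 2.36 in morula and 2.12 to 2.28 in late morula. Those near cumulus and granulosa cell markers, from cells that surround the oocyte, had medians of 2.83 to 3.11 and 2.70 to 3.02. These ranges overlapped those of the pluripotency genes at both stages, and the part of such cells in the results was not tested.

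The largest increase was in an intron at -3208 bp from the nearest transcription start site (TSS) of *Bcar3*, which encodes an adaptor of Src family signalling. Its rlog was 2.47, 1.38 and 0.97 in the morula libraries and 5.19, 5.80 and 5.04 in late morula. The difference was 3.74 ± 0.50 (SE, n = 3 and 3, adjusted p = 2e-07), and the groups were far apart. The next was an intergenic site 242105 bp from *Shox2*, its nearest gene, with 2.13, 1.92 and 1.45 against 5.63, 5.32 and 5.63 (difference 3.70). An intron of *Tanc1*, which encodes a scaffold protein, followed with 1.84, 1.64 and 2.60 against 5.41, 6.07 and 5.57 (difference 3.66). The other 5 of the 8 largest increases, at 3.22 to 3.42, lay near *Cep55* (cytokinesis), *Slc9a2* (a sodium/proton exchanger), *2010111I01Rik*, *Tmsb10* (an actin-binding thymosin) and *Serpinb6c* (a protease inhibitor). At the *Slc9a2* window printed above the values were 2.21, 1.54 and 2.35 in morula and 5.72, 5.34 and 5.20 in late morula. At the *2010111I01Rik* window, which holds CDX on both strands, they were 1.18, 1.03 and 0.69 against 4.75, 4.64 and 3.66. All 8 were called in the same direction in *Pou5f1*-KO embryos, with differences of 2.12 to 2.98.

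The largest decrease was in an intron of *Ubxn7*, a cofactor of the p97 segregase. Its rlog was 3.74, 3.56 and 3.83 in morula and -0.04, 0.13 and 0.05 in late morula, a difference of -3.66 ± 0.53 (SE, n = 3 and 3, limma adjusted p = 1.5e-06). The site was well open in every morula library and near the bottom of the scale in every late morula library. The intronic site of *Ssc4d*, a scavenger receptor gene, went from 3.66, 3.29 and 3.81 to -0.10, 0.07 and -0.01. The remaining 6 of the 8 largest decreases, at -3.54 to -3.29, were nearest to *Tigd3*, *Klf8*, *Zbtb17*, *Psors1c2*, *St3gal2* and *Atxn7*. In *Pou5f1*-KO embryos all 8 differences were negative, from -2.34 to -1.10, and those near *Psors1c2* and *St3gal2* were not called (adjusted p = 0.24 and 0.18). OBOX occurred in 6 of the 8 windows, all but those of *Ssc4d* and *St3gal2*.

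**Figure D2:**
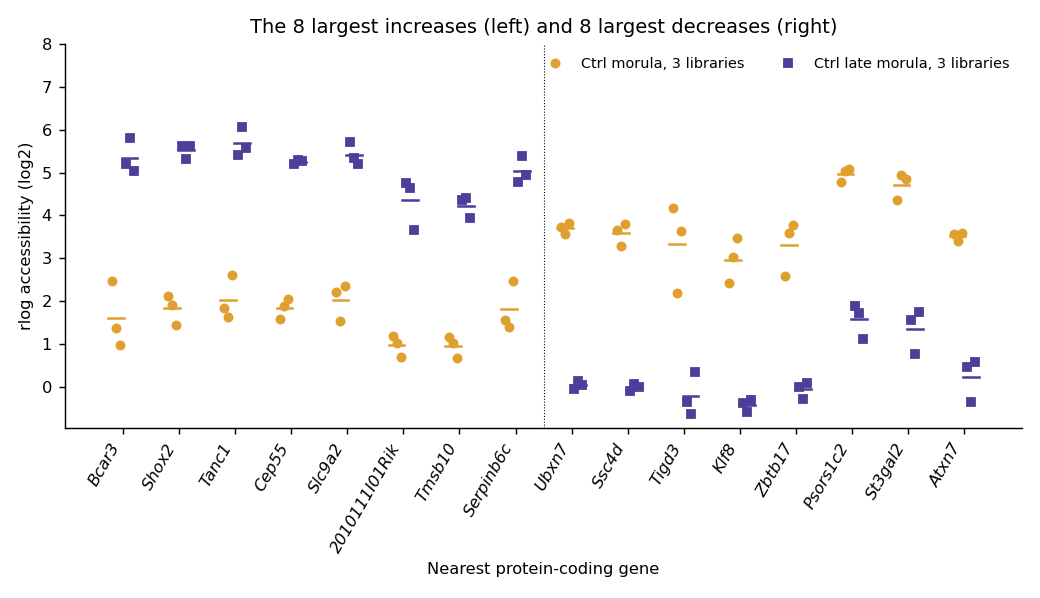
rlog accessibility (log2) in each of the 6 Ctrl libraries at the 8 peaks with the largest increase and the 8 with the largest decrease, named by the nearest protein-coding gene. Circles are morula, squares late morula and lines their means over 3 libraries. The stages do not overlap at any of the 16 peaks, which were chosen for their size and for this gap.

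The 23 motifs were searched on both strands, and their shares are given as a description without a test. CDX, the core bound by CDX2 and related homeobox factors, was found in 10.1% of the higher peaks, 3.03% of all peaks and 0.987% of the lower. GRHL, bound by the grainyhead factors of epithelia, was found in 4.44%, 1.79% and 0.987%. AP-1 had 9.62%, 7.75% and 4.54%, ETS (CCGGAAG) 3.69%, 2.71% and 0.587%, and NFY (CCAATNAG) 5.77%, 4.57% and 2.30%. TEAD was found in 8.17% of the higher peaks, 7.53% of all peaks and 4.77% of the lower. GATA was at 9.57% and 8.95% in the higher and lower peaks, both above the 7.71% of all peaks. A motif match describes the letters in the window and does not show binding.

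Seen from the motif, 12.2% of the 4617 windows with CDX were higher and 0.910% lower. The share that was higher grew with the number of CDX matches, from 3.38% with none to 11.8% with 1 and 21.7% with 2, the last over 157 windows. Of the 109 windows with both CDX and GRHL, 26 were higher and 1 was lower. Of the 615 with both CDX and TEAD 8.78% were higher, less than the 12.7% of windows with CDX but not TEAD. Beside GATA or AP-1 the share of CDX windows that was higher was 14.5% and 14.4%. The share of CDX windows that was higher was 20.0% within 100 bp of a TSS and 12% elsewhere, 15.1% in windows without a repeat-masked base and 6.02% in windows with more than 100 of them. In each of these classes it was larger than in windows without CDX (4.62%, 3.27%, 4.71% and 1.38%).

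OBOX, a core shared by the OBOX and other paired-like homeobox factors that act at zygotic genome activation, was found in 42.4% of the lower peaks, 11.5% of all peaks and 5.18% of the higher. NR5A2, the site of an orphan nuclear receptor of the early embryo, was found in 19.4%, 8.56% and 2.79%. ESRRB, the site of a related pluripotency receptor, was found in 10.4%, 5.95% and 2.28%. Of the lower peaks, 55.4% held at least 1 of these 3 motifs, against 22.4% of all peaks. The share of windows that was lower was 1.81% without OBOX, 9.52% with 1 match, 20.8% with 2 and 27.6% with 3 or more matches, the last over 58 windows. For NR5A2 it was 2.46% with no match, 6.48% with 1, 5.2% with 2 and 1.92% with 3 or more, the last over 208 windows. Windows with both OBOX and NR5A2 were lower in 16.6% of 3118 cases, and those with OBOX but not NR5A2 in 8.97%. Without OBOX, windows with NR5A2 were lower in 3.08% and those with ESRRB in 3.66%, against 2.79% of all peaks. Windows with OBOX were lower in 9.98% with ESRRB and in 10.4% without it. SOX (CATTGTT) was found in 4.28% of the lower peaks and 3.04% of all peaks. KLF (GGGNGTGG), at 21.1% and 20.6%, OCT-SOX (TTGTNATG), at 3.10% and 2.94%, and OCT (ATGCAAAT), at 1.88% and 2.39%, had similar shares of the lower and of all peaks, and stood at 13.2%, 2.10% and 1.46% of the higher. Shares of motifs also follow base composition and repeats.

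**Figure D3:**
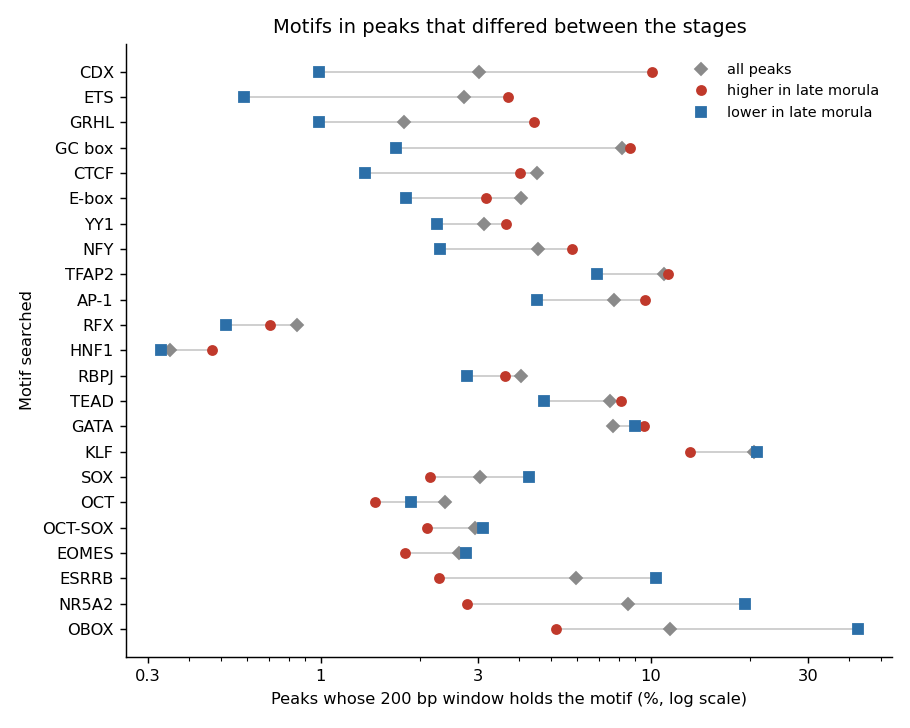
Share of peaks (log axis, %) whose 200 bp window holds each of 23 motifs, among all peaks (diamonds), peaks higher in late morula (circles) and peaks lower in late morula (squares), ordered by the median difference of all windows with the motif. CDX is at 10.1% of the higher and 0.987% of the lower peaks, and OBOX at 5.18% and 42.4%.

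The motifs could also be followed without the calls, as the median rlog of all windows with a motif minus that of all peaks in the same library. For OBOX this was 0.26, 0.30 and 0.28 in morula and -0.22, -0.21 and -0.21 in late morula. For NR5A2 it was 0.24, 0.33 and 0.33 against -0.07, -0.11 and -0.08, and for CDX -0.41, -0.45 and -0.53 against 0.02, 0.05 and -0.03. The stages did not overlap for any of the 3, and OBOX and NR5A2 windows lost their lead over the average peak in Ctrl. The *Pou5f1*-KO libraries ran from 0.34 to 0.55 in morula and from -0.08 to 0.03 in late morula for OBOX, from 0.40 to 0.48 and 0.12 to 0.21 for NR5A2, and from -0.77 to -0.59 and -0.31 to -0.14 for CDX. NR5A2 windows thus stayed above the average peak in all 3 KO late morula libraries. They also fell between the stages in KO and had started higher in KO morula than in Ctrl. The genotypes were not compared by a test on this measure. GATA windows lay between 0.02 and 0.17 in Ctrl morula and between -0.00 and 0.05 in Ctrl late morula, with overlap. TEAD windows overlapped too, at -0.08 to -0.06 and -0.12 to 0.06.

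Repeats made up much of the lower peaks. More than 100 of the 200 bases were repeat-masked in 50.2% of the lower peaks, 22.9% of all peaks and 9.51% of the higher. Of the 34979 windows of that kind, 6.11% were lower and 1.51% higher, and of the 51794 windows with no masked base 1.02% were lower and 5.02% higher. The most frequent surroundings of OBOX and of NR5A2 in the lower peaks, with 6 bases on each side and the motif in capitals, were as follows.
the GGATTA stretch: gtgctgGGATTAaaggcg
the CAAGGCCA stretch: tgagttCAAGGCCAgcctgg
The first stood in 443 of the 4255 lower peaks and 4 of the higher, and 15.4% of the 2884 windows that held it were lower. The second stood in 237 lower peaks and 1 higher peak, and 16.4% of its 1442 windows were lower. These letters are those of the B1 family of short interspersed elements, a repeat with very many copies in the mouse genome. Both appear in the *Tead3* window printed above, the first on the opposite strand. Within mostly masked windows, 14.7% of those with OBOX and 3.39% of those without were lower. In windows with no masked base the lower shares were 2.52% and 0.946%, and there more of the 2416 windows with OBOX were higher (92, 3.81%) than lower (61), with a median difference of 0.11. Without OBOX 5.08% were higher, with a median of 0.26. The authors kept uniquely mapped reads, and the part of mapping in repeats in these shares was not tested.

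Called peaks at promoters were mainly higher, but how far they exceeded the share of promoters among all peaks depended on the scaling. Within 100 bp of a TSS were 10.1% of the higher peaks, 7.77% of all peaks and 1.10% of the lower. Of the 11846 such peaks, 564 were higher and 47 lower, with a median difference of 0.38 against 0.05 for the other peaks. After the median shift 364 were higher and 59 lower, and promoters made up 8.27% of the higher peaks, near their 7.77% of all peaks. After quantile normalization the counts were 718 and 80. The median rlog of all promoter peaks above that of all peaks was 0.60, 0.72 and 0.95 in morula and 1.12, 1.11 and 1.01 in late morula. This promoter signal, which also varies with the quality of an ATAC-seq library, thus differed between morula libraries by more than it did between late morula libraries, and its part in the promoter calls was not tested. Introns held 49.5% of the higher and 50.8% of the lower peaks, and intergenic DNA 40.8% and 45.1%, close to all peaks (47.4% and 42.3%).

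Genes of the outer epithelium had called peaks that were mainly higher. Of the 266 peaks within 10 kb of a TSS of genes for keratins, junctions and polarity, 25 were higher and none was lower (9.40% and 0%), with a median difference of 0.40. Among all 70843 peaks that near a protein-coding TSS, 3.86% were higher and 2.57% lower, with a median of 0.14. Housekeeping genes, with 9 higher and 2 lower of 106 peaks, had a similar share of higher peaks (8.49%), so a share of this size was also found outside the epithelial genes. That higher count was 4 without late morula replicate 1, late morula replicate 3 or morula replicate 2, and 5 without late morula replicate 2. The epithelial count was then 12, 16, 18 and 16. Without morula replicate 1 the housekeeping and epithelial counts were 8 and 17, and without morula replicate 3 they were 9 and 21. After the median shift the epithelial genes had 20 higher peaks and 1 lower, and after quantile normalization 31 and 3. *Dsc2*, which encodes a desmosomal cadherin, had 1.88, 1.68 and 1.61 in morula and 3.77, 4.23 and 3.99 in late morula at an intronic peak (difference 2.27 ± 0.39, limma adjusted p = 5.8e-05). An intronic peak of *Tjp1* (ZO-1 of tight junctions) went from 1.06, 0.92 and 0.60 to 3.29, 2.91 and 2.94. The promoter peak of the polarity gene *Pard3* went from 3.79, 2.62 and 3.90 to 5.26, 5.79 and 5.73, and a peak at -7788 bp from *Myh9*, a nonmuscle myosin heavy chain gene, from 1.92, 1.23 and 1.31 to 3.81, 3.78 and 3.52. None of these overlapped between the stages. *Krt8*, *Dsc2* and *Pard3* had 3 higher peaks each. The strongest peaks near *Krt8* (difference 0.65, adjusted p = 0.19), *Krt18* (0.86, 0.16) and *Cdh1* (0.39, 0.46) did not pass the test, and those near *Krt18* and *Cdh1* overlapped between the stages.

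TE regulators had 18 higher and 2 lower peaks of 173 (10.4% and 1.16%, against 3.86% and 2.57% near all protein-coding genes and 8.49% and 1.89% near housekeeping genes, median difference 0.28). The promoter peak of *Tfap2a*, an AP-2 factor, was at 2.07, 1.86 and 1.74 in morula and 4.59, 4.76 and 4.34 in late morula (difference 2.67 ± 0.46, limma adjusted p = 5.9e-05). *Grhl2*, a grainyhead factor, rose from 0.65, 0.54 and 0.78 to 3.71, 3.17 and 2.80 at a peak in an exon, at -7413 bp from its nearest TSS, and *Grhl1* from 1.13, 0.99 and 1.79 to 3.93, 3.58 and 3.29. Beside *Cdx2* a peak 9309 bp downstream of the TSS rose from 2.68, 2.43 and 3.64 to 4.74, 5.22 and 5.25 (difference 2.16 ± 0.41, adjusted p = 0.00028). The peak near *Cdx2* that was strongest in the other 38 libraries was already at 5.08, 5.04 and 4.24 in morula and stood at 5.13, 5.23 and 5.10 in late morula (0.37, adjusted p = 0.58). *Id2* had 4 higher peaks of 6. The 2 lower peaks lay at -6009 bp from *Tead4*, at 3.80, 4.37 and 4.87 against 2.44, 3.14 and 2.45 (difference -1.67, adjusted p = 0.019), and at the promoter of *Hand1*, a factor of giant cells (-1.58, adjusted p = 0.008). Neither was called without morula replicate 2 or without late morula replicate 1, nor *Tead4* without morula replicate 3 or late morula replicate 3, with adjusted p up to 0.11 and 0.065. The strongest *Gata3* peak had 4.65, 4.93 and 6.03 against 6.26, 5.93 and 5.96, which overlapped, and its call (0.85, adjusted p = 0.035) was lost without any one of 5 of the 6 libraries, all but morula replicate 3 (adjusted p up to 0.28), and under 4 other settings. The strongest peaks near *Tead4* (0.39, adjusted p = 0.43) and *Tfap2c* (-0.06, 0.95) did not pass the test.

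Genes for ion and water transport had 13 higher and 4 lower peaks of 127 (10.2% and 3.15%, against 3.86% and 2.57% near all protein-coding genes and 8.49% and 1.89% near housekeeping genes). Without late morula replicate 1 this list had 7 higher peaks and 1 lower. A peak at -590 bp from *Atp1b1*, a subunit of the sodium pump, holds GRHL and rose from 3.47, 3.39 and 3.55 to 5.31, 4.91 and 5.42 (difference 1.74 ± 0.43, limma adjusted p = 0.005). The promoter of *Slc2a1*, the glucose transporter GLUT1, rose from 2.18, 2.66 and 4.0 to 4.89, 4.87 and 4.89. The strongest *Aqp3* peak was at 5.10, 5.05 and 5.61 in morula and 4.57, 4.52 and 4.66 in late morula, a difference of -0.67 that did not pass the test (adjusted p = 0.16).

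**Figure D4:**
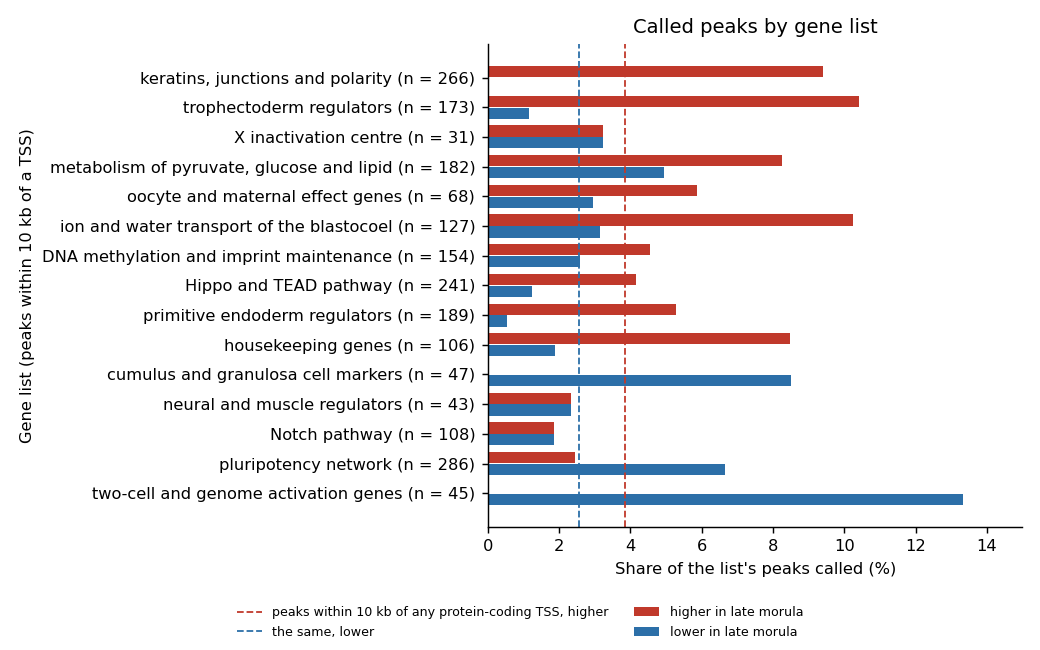
Share (%) of the peaks within 10 kb of a TSS of each gene list that were called higher (red) or lower (blue) in late morula, with the number of peaks of each list. Dashed lines give the same shares for peaks near any protein-coding gene, 3.86% and 2.57%. Lists are ordered by their median difference.

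In the Hippo and TEAD pathway 10 of 241 peaks were higher and 3 lower (4.15% and 1.24%), against 3.86% and 2.57% near all protein-coding genes. The counts were 4 and 1 without late morula replicate 1, and 4 and 3 without late morula replicate 2. The *Wwtr1* (TAZ) window printed above, which holds CDX and AP-1, was at 1.87, 1.68 and 2.14 in morula and 4.58, 4.46 and 3.93 in late morula (difference 2.42 ± 0.49, limma adjusted p = 0.0007). An intronic peak of *Lats1*, the kinase that restrains YAP and TAZ, was at 2.12, 0.98 and 0.66 against 3.37, 3.41 and 3.57. The *Tead2* window, which holds GRHL, was at 2.29, 2.89 and 1.90 against 4.40, 3.92 and 4.14, and its call was lost without morula replicate 3 or late morula replicate 1 (adjusted p up to 0.069). The *Tead3* window with both repeat stretches fell from 2.27, 3.34 and 3.13 to -0.05, 1.18 and 0.59 (difference -2.34 ± 0.49). Notch genes had 2 higher and 2 lower peaks of 108 (1.85% each). The *Hes1* window, a target gene of Notch, holds CDX and TEAD and rose from 2.98, 2.73 and 3.21 to 5.19, 5.43 and 4.61 (difference 2.10 ± 0.42, adjusted p = 0.00046).

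In the pluripotency network more peaks were lower than higher, with 7 higher and 19 lower of 286 peaks (2.45% and 6.64%, against 3.86% and 2.57% near all protein-coding genes, median difference -0.06). The higher count was 2 to 4 without morula replicate 1 or 2 or late morula replicate 1 or 2, and 11 without morula replicate 3. The lower count was 31 after quantile normalization, 9 without late morula replicate 1, and 11 without morula replicate 1 or without morula replicate 2. *Pou5f1*, *Fgf4*, *Socs3* and *Pecam1* had 3 lower peaks each. A peak 6971 bp downstream of the *Pou5f1* TSS was at 4.16, 4.08 and 4.22 in morula and 1.54, 2.28 and 2.43 in late morula (difference -2.07 ± 0.47, limma adjusted p = 0.0021). A peak upstream of *Socs3*, a feedback inhibitor of LIF signalling, holds OBOX and ESRRB and fell from 4.54, 3.67 and 4.37 to 1.98, 2.80 and 1.90. The *Fgf4* window printed above, 7191 bp from the TSS of this growth factor gene, fell from 3.98, 3.17 and 3.40 to 0.58, 1.90 and 1.53 (difference -2.18), and its adjusted p rose from 0.0029 to 0.054 without late morula replicate 1. A second *Fgf4* peak, the strongest outside these libraries, was at 4.30, 4.0 and 4.58 against 3.81, 4.38 and 3.69 (adjusted p = 0.64). The strongest peaks of *Nanog* (difference 0.43, adjusted p = 0.20) and *Sox2* (0.19, 0.87) did not pass the test, and that of *Sox2* lay at 1.85 to 2.53 in morula and 2.35 to 2.62 in late morula. The strongest *Klf4* peak passed it narrowly (-1.13, adjusted p = 0.043), and that call was lost without any one library except morula replicate 1 (adjusted p up to 0.21). Among the 7 higher peaks were the promoter of *Nr5a2* (1.75) and an intronic site of *Esrrb* (1.75). The first was not called without morula replicate 1 (adjusted p = 0.066) and the second not without late morula replicate 1 (0.089). *Nr5a2* and *Esrrb* also had 1 lower peak each.

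Primitive endoderm regulators had 10 higher peaks and 1 lower of 189 (5.29% and 0.529%, against 3.86% and 2.57% near all protein-coding genes). *Dab2*, an endocytic adaptor that also marks outer cells of the embryo, had an intronic peak with CDX and AP-1 that rose from 2.86, 2.31 and 3.65 to 4.87, 5.20 and 5.37. The strongest peaks of *Gata6* (0.19, limma adjusted p = 0.77) and *Fgfr2* (-0.38, 0.41), which carry the first steps of that lineage, did not pass the test. Genes of the 2-cell stage and genome activation had 6 lower peaks and none higher of 45 (13.3% and 0%), and 4 of the 6 lay at *Obox6*. The largest fell from 4.04, 3.64 and 3.16 to 0.77, 1.29 and 1.34 (difference -2.48 ± 0.55, adjusted p = 0.002). *Obox6* shares its neighbourhood on chromosome 7 with *Crx* and *Crxos*, which were the protein-coding genes with the most lower peaks within 50 kb. The 3 genes together had 47 such peaks, of which 10 were lower, by -2.48 to -1.42, and none higher. The next, *Nufip2*, had 9 lower of 21. On the other side, *Tanc1* had 11 higher peaks of 70 and *Tns3*, a focal adhesion gene, 10 of 61.

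Enzymes of pyruvate, glucose and lipid metabolism had 15 higher and 9 lower peaks of 182 (8.24% and 4.95%). These shares were 3.86% and 2.57% near all protein-coding genes and 8.49% and 1.89% near housekeeping genes. The 2 hexokinases of the metabolic list differed in direction at their largest peaks. An intronic peak of *Hk2* rose from 1.5, 1.82 and 1.37 to 4.67, 3.78 and 4.26 (difference 2.67 ± 0.49, limma adjusted p = 0.00014). The *Hk1* window printed above, with OBOX, fell from 4.80, 4.87 and 4.28 to 0.74, 1.68 and 2.42 (difference -3.04 ± 0.47, adjusted p = 9.1e-06). A peak upstream of *Idh2*, a mitochondrial dehydrogenase, fell from 4.63, 3.83 and 5.02 to 1.43, 2.01 and 1.27. Genes of DNA methylation and imprint maintenance had 7 higher and 4 lower of 154 (4.55% and 2.60%, near the 3.86% and 2.57% of all protein-coding genes), and 4 and 5 after the median shift. *Tet3*, which oxidises methylcytosine, had an intronic peak at 1.57, 2.16 and 2.34 against 4.67, 4.29 and 3.74. *Uhrf1*, which directs maintenance methylation, had one at 5.13, 4.17 and 4.34 against 1.06, 2.55 and 1.21, and *Dnmt3l*, the cofactor of new methylation, one with OBOX and NR5A2 at 2.46, 2.94 and 2.19 against 0.65, 0.30 and -0.19. Of its 11 peaks *Dnmt3l* also had 1 that was higher. Oocyte genes had 4 higher and 2 lower of 68 (5.88% and 2.94%), and cumulus and granulosa markers 0 and 4 of 47 (0% and 8.51%). Each of those 4 calls was lost without at least 1 of the 6 libraries, and 1 lower peak was called without late morula replicate 3 or without morula replicate 2, and 7 after quantile normalization. Neural and muscle regulators had 1 and 1 of 43 (2.33% each), and the X inactivation centre 1 and 1 of 31 (3.23% each). The strongest *Xist* peak did not overlap between the stages but did not pass the test (0.90 ± 0.46, adjusted p = 0.26).

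The *Pou5f1*-KO libraries of both stages were read at the same peaks. Whether both genotypes came from the same collections is not given. Deviations of same-numbered Ctrl and KO libraries from their group means had correlations of 0.0479 to 0.153 in morula and 0.109 to 0.192 in late morula, and the part of shared collections in the agreement below was not tested. Of the 5560 higher peaks, 95.5% had a positive difference in KO, against 54.5% of all peaks, and of the 4255 lower peaks 95.2% had a negative one. The median differences in KO were 1.00 and -1.07, against 1.66 and -1.74 in Ctrl, where the calls were made and the sizes are therefore selected upward. Across all peaks the KO and Ctrl differences had a Pearson correlation of 0.605 and a Spearman correlation of 0.560, given as a description, since peaks are not independent. KO had 2829 higher (1.86%) and 2308 lower peaks (1.51%) of its own at the same threshold. Of the Ctrl calls, 1305 higher and 1018 lower peaks were also called in KO in the same direction, and 1 was called in the opposite direction. The test of the difference between the KO and Ctrl stage effects called no peak (0% by limma), with 2831 peaks above and 3032 below at an unadjusted p under 0.05. Individual peaks with a call in Ctrl and little difference in KO, such as *Lats1* (2.20 against 0.07) and *Socs3* (-1.97 against -0.13), were therefore not shown to differ between genotypes.

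At the lower peaks the median rlog was 3.49 ± 0.05 (SD, n = 3) in Ctrl morula, 1.60 ± 0.17 in Ctrl late morula, 1.98 ± 0.07 (n = 4) in Ctrl early ICM and 1.67 ± 0.06 in Ctrl late ICM. The early ICM mean lay on the late morula side of the midpoint between the stages at 67.6% of them and the late ICM mean at 74.3%, against 50.0% and 52.9% of all peaks with a negative difference. At the higher peaks the medians were 1.94 ± 0.08, 3.81 ± 0.07, 2.67 ± 0.16 and 2.87 ± 0.05, and 38% lay on the late morula side in early and 45.2% in late ICM, against 51.4% and 53.0% of all peaks with a positive difference. The midpoints rest on the libraries that chose the peaks, so these shares are a description. In *Pou5f1*-KO late ICM the higher peaks stood at 3.49 ± 0.10 and in *Sox2*-KO late ICM at 3.38 ± 0.06, beside 2.89 ± 0.15 in the *Sox2*-line Ctrl. ICM libraries differ from morulae in the inhibitor, the culture and the removal of the TE as well as in age, and the parts of these cannot be told apart.

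**Figure D5:**
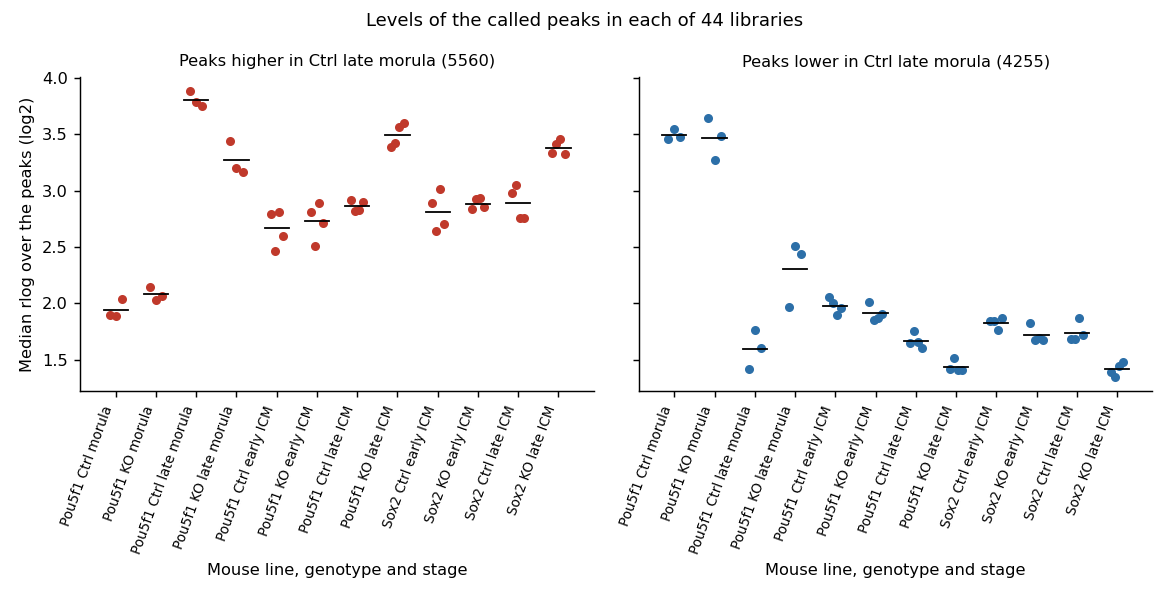
Median rlog (log2) of the 5560 higher (left, red) and 4255 lower peaks (right, blue) in each of 44 libraries, by line, genotype and stage, with lines for the means of 3 or 4 libraries. The Ctrl morula and late morula libraries chose the peaks, so their gap is a description. Lower peaks stay at or below 2.06 in all ICM libraries, and higher peaks lie between both Ctrl morula stages there.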

How the data were processed

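The series holds 44 ATAC-seq libraries, and the 6 Ctrl morula and late morula libraries were compared. Per the submitters' processing notes, Bowtie2, Picard, MACS2, bedtools, deepTools and DESeq2 were used with mm10. The authors kept uniquely mapped fragments without duplicates, removed peaks in blacklisted regions and satellite repeats, counted insertions in 200 bp windows around summits merged over all groups, and deposited regularized log (rlog) values, which are log2 values normalized for depth and shrunken for weak peaks. Without raw counts, sequencing depth is unknown, no count model was run and no counting interval can be given. A deposited file of the authors' mean values per group was not used.

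The rlog values of all 152393 peaks in all 44 libraries were fitted in limma 3.58.1 (R 4.3.3) with 1 mean per group and a trended variance prior, without a filter or pseudocount. Late morula minus morula was tested 2-sided, and p-values were adjusted by Benjamini-Hochberg over all peaks at a threshold of 0.05. The pooled groups share 1 estimate of the spread. The script was tested on simulated data. Libraries were assigned by their labels. The distance test was an exact permutation of the stage labels. Replicate numbers did not pair the stages and were not used.

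Start sites and gene features came from GENCODE vM21 on GRCm38, a release other than the authors' vM23, and windows and soft-masking from the GRCm38 sequence. Positions are 1-based. Peaks were given to a gene list within 10 kb of a start site. Peaks were named by rule. For each of 15 lists (315 genes in all), at most 4 called peaks per direction were taken by size of the difference. The 8 largest called peaks per direction without overlap between the stages, the peak strongest in the other 38 libraries near each of 16 genes, and the 5 genes per direction with the most called peaks within 50 kb were taken too, and the text describes a selection of these. The gene lists, motifs and comparisons were chosen with earlier results of these data known. Python 3.11.15, numpy 2.4.6, pandas 2.3.3, scipy 1.17.1 and matplotlib 3.10.9 were used. Alternatives were other scalings, subsets of libraries, variance priors, a filter on weak peaks, a replicate block, leaving out each library in turn, a wider promoter distance, peaks within 10 kb of gene bodies, distal peaks and a size threshold.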

Additional observations from a re-analysis of the deposited data

Results flagged for a closer look

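The median rlog over the 4255 lower peaks was examined in the ICM libraries, which took no part in the comparison, together with that over the higher peaks. In 3 of the 8 ICM groups of 4 libraries, 1 library lay apart from the other 3 at the lower peaks, with a gap above Dixon's critical share of the range of its group. These were *Pou5f1*-KO late ICM replicate 2 at 1.51, *Sox2*-KO early ICM replicate 1 at 1.83 and *Sox2*-line Ctrl late ICM replicate 3 at 1.88. Each was the highest of its group and below all 3 Ctrl morula libraries. With 16 values tested (8 groups and 2 measures), chance alone flags about 1 in 20.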

How the results depend on the processing

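The stage counts moved by over 1.5 times when weak peaks were left out (3425 higher and 1666 lower peaks at or above the median rlog) and, for lower peaks, after quantile normalization (6837). Leaving out 1 library in turn gave 2454 (without late morula replicate 1) to 4834 higher peaks (without morula replicate 3) and 1893 (without late morula replicate 1) to 3146 lower peaks (without late morula replicate 2). The other alternatives kept both counts within 1.5 times. With a replicate block, 6184 peaks were higher and 4676 lower over all libraries, and 6808 and 5705 over the 12 morula libraries. Same-numbered morula and late morula libraries did not deviate together (correlations of -0.0113, 0.00662 and 0.0191), so the replicate numbers do not pair the stages. The share of higher peaks near a TSS was 22.9% within 1 kb (19.5% of all peaks), 15.1% among stronger peaks (12.6% of all such peaks) and 11% after quantile normalization, and 8.27% after the median shift, an alternative chosen after seeing the data. That of lower peaks was 7.66% within 1 kb and 1.56% among stronger peaks. Of 99 named called peaks, 51 kept their call under every alternative that included them (63 of the 99 were among the stronger peaks), 7 lost it under a setting other than a left-out library, and none changed direction. Among named peaks that did not pass the test, the difference changed sign near *Tfap2c* (0.08 without morula replicate 3 and 0.05 without late morula replicate 3, with the lowest value at -0.21), *Cdh1* (-0.01 without morula replicate 1, up to 0.67 without morula replicate 3) and *Sox2* (-0.02 and 0.32 without the same libraries). With 1 library left out, the higher peaks of the keratin, junction and polarity list numbered 12 (without late morula replicate 1) to 21 and those of the Hippo list 4 (without late morula replicate 1 or 2) to 8. Those of the TE list numbered 12 (without late morula replicate 3) to 19 (without morula replicate 3). The lowest counts were 7 higher for ion and water transport (without late morula replicate 1 or 3), 4 higher for primitive endoderm (without morula replicate 2), 8 higher and 4 lower for metabolism (without late morula replicate 2 and morula replicate 3), 3 higher for DNA methylation (without late morula replicate 1 or 3) and 3 lower for the 2-cell list (without morula replicate 3). Counts within 10 kb of the gene body in place of the start sites moved the calls of 5 of 15 lists in each direction, and distal peaks alone moved the shares of 6 of 23 motifs among the higher peaks and 0 among the lower. The comparison of stage effects between *Pou5f1*-KO and Ctrl had 0 calls in limma under each of the 16 alternatives run for it, against 2831 and 3032 peaks at an unadjusted p under 0.05. Depth is unknown, and rlog understates differences of weak peaks. The cause of each shift was not tested, except that fewer peaks or libraries enter by construction where some are left out.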

Other observations

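Motif windows could be read in the ICM libraries as well, as their median rlog minus that of all peaks. OBOX windows lay between -0.51 and -0.43 in the 4 *Pou5f1*-line Ctrl early ICM libraries and between -0.62 and -0.55 in late ICM, below all 3 late morula libraries, and in *Sox2*-line Ctrl between -0.50 and -0.34 in early and -0.51 and -0.42 in late ICM. CDX windows lay between -0.45 and -0.26 in *Pou5f1*-line Ctrl early ICM and between -0.32 and -0.16 in late ICM, and in *Sox2*-line Ctrl between -0.34 and -0.11 in early and -0.36 and -0.24 in late ICM. In *Pou5f1*-KO late ICM they lay between -0.05 and 0.12 and in *Sox2*-KO late ICM between -0.01 and 0.18, near the level of all peaks. TEAD windows, which overlapped between the morula stages, lay between 0.04 and 0.14 in *Pou5f1*-line Ctrl late ICM and between 0.26 and 0.45 in *Pou5f1*-KO late ICM. In the *Sox2* line they lay between -0.07 and 0.27 in Ctrl and between 0.34 and 0.47 in KO late ICM. A block of chromosome 9 around *Cib2*, *Idh3a* and *Sh2d7* held 10 higher peaks of 32 and 1 lower, and around *Nufip2* 9 of 21 peaks were lower, against 3.65% higher and 2.79% lower of all peaks. These blocks were picked for their many calls, so the counts are a description. Of the 10 and the 9, 3 and 2 were also called in *Pou5f1*-KO, near the 23.5% and 23.9% of all higher and lower peaks.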
